A study of Homo sapiens with 24 samples.

Results

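Collagens, the triple-helical proteins of the extracellular matrix, and the genes that fold, hydroxylate and cross-link them were followed in HCT116 cells, a human colon cancer line, with and without TNRC6 paralogs. The set holds 60 of the 57721 genes in the deposited tables. It comprises all 44 protein-coding genes that GENCODE 29 names as a collagen chain, and 16 maturation genes taken by name (SERPINH1, P4HA1, P4HA2, P4HB, P3H1, CRTAP, PLOD1, PLOD2, PLOD3, LOX, LOXL1, LOXL2, LOXL3, LOXL4, FKBP14 and TRAM2). All 60 had reads in at least 1 library, and 49 had reads in all 24. A filter on low counts, which a gene can pass through the groups where it is high, left 52 members to be tested, 37 collagen chains and 15 maturation genes. The 8 that did not pass, COL2A1, COL4A2, COL6A5, COL10A1, COL11A1, COL22A1, COL23A1 and LOX, reached at most 0.344 CPM (TMM-scaled read counts divided by library size) in any library.

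RNA was sequenced as 24 libraries, 3 in each of 8 groups. Untransfected groups were wild type, TNRC6A-/-, TNRC6B-/- and TNRC6AB-/- cells. Transfected groups were wild-type and TNRC6AB-/- cells given either siTNRC6C, a pool of duplex RNAs against the remaining paralog, or siGL2, a control duplex without a target in these cells. TNRC6 proteins scaffold the Argonaute silencing complex, and the comparisons address how loss of each paralog, alone or together, alters RNA levels. TNRC6A-/- cells carry a frameshift, TNRC6B-/- cells a deletion, and each knockout is a single line, and effects of the edit cannot be told apart from other differences of that line. Whether the 3 libraries of a group came from separate cultures is not stated, and the p-values then measure only the spread between these samples, which may be technical.

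A collagen molecule is built in the endoplasmic reticulum. Prolyl and lysyl hydroxylases modify its chains, chaperones such as HSP47 (SERPINH1) hold the trimer, and lysyl oxidases cross-link it after secretion. Fibrillar types I, II, III, V and XI form tensile fibrils, FACIT types such as IX and XII sit on fibril surfaces, type IV forms the sheet of basement membranes, and types XIII and XVII span the plasma membrane of epithelial and other cells. Epithelial cells make basement membrane and transmembrane collagens, while most fibrillar collagen of a tissue comes from fibroblasts.

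Libraries held 28130899 to 42678308 assigned reads, and wild-type replicate 2, TNRC6B-/- replicate 1, TNRC6AB-/- replicate 1 and wild-type siGL2 replicate 3 lay farthest from their group means. Mean fragment length was 165 to 172 bases in TNRC6A-/-, 182 to 192 bases in the other untransfected libraries and 197 to 214 bases in transfected ones. The 8 epithelial markers (EPCAM, CDH1, keratins and claudins among them) summed to between 1260 and 2818 CPM in every library. The 7 fibroblast markers summed to 0.656 to 1.93 CPM, with FAP at 0 in 14, LUM in 18 and THY1 in 11 of 24 libraries. TNRC6A RNA went from 111.5 to 68.7 CPM on TNRC6A loss, and TNRC6B RNA from 192.3 to 119.8 CPM on TNRC6B loss. TNRC6C RNA was 53.7 CPM in wild-type siGL2 and 21.0 CPM in wild-type siTNRC6C cells, and 119.8 and 19.7 CPM in the TNRC6AB-/- counterparts.

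In wild-type cells the maturation genes summed to more than the collagen chains, and P4HB alone exceeded the collagen sum. Levels between genes are given in TPM, the length-corrected transcript share of a library. The 16 maturation genes summed to 551.7 ± 53.7 TPM (mean ± SD, n = 3) and the 44 collagens to 132.4 ± 7.35 TPM. P4HB, protein disulfide isomerase and beta subunit of prolyl 4-hydroxylase, led with 305.7 ± 34.2 TPM. It was followed by the lysyl hydroxylase PLOD1 at 55.5 ± 19.0 TPM and the prolyl 3-hydroxylase partner CRTAP at 36.3 ± 7.63 TPM, whose ranges overlap that of P4HA1, the catalytic prolyl 4-hydroxylase subunit, at 28.0 ± 21.1 TPM. The cross-linking genes LOXL3, LOXL4 and LOX were low, at 0.81, 0.68 and 0.02 TPM. Among chains the leaders were COL6A2 at 21.0 ± 1.25, COL6A1 at 18.7 ± 2.34 and COL1A1 at 13.1 ± 2.57 TPM, and 17 of the 44 reached 1 TPM.

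**Figure D1:**
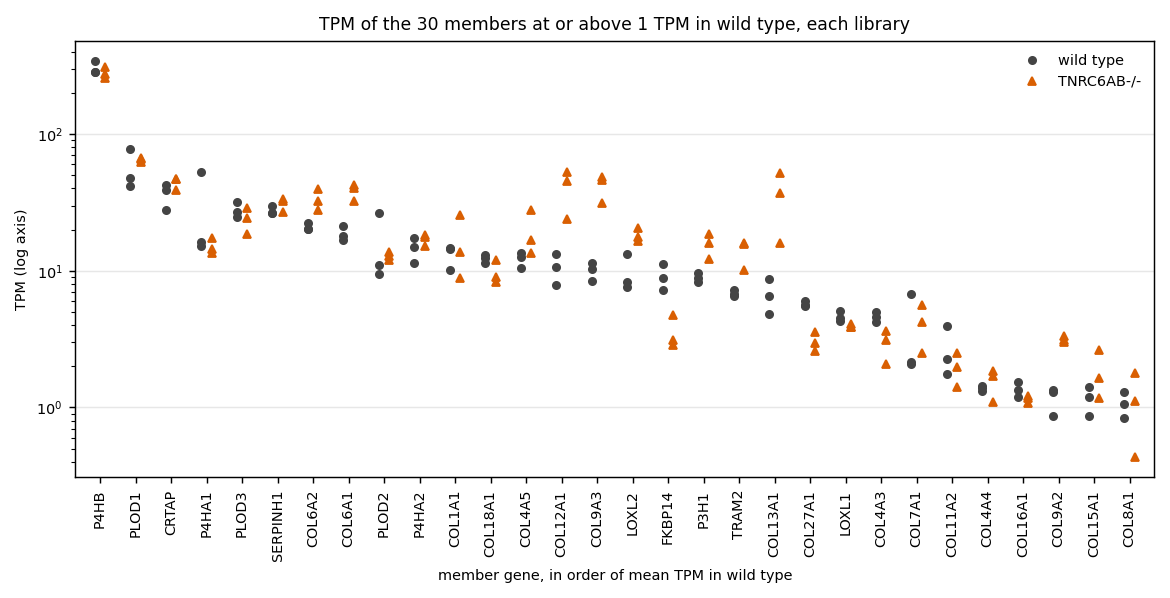
TPM (log axis) of the 30 members at or above 1 TPM in wild type, ordered by mean, with each wild-type library as a circle and each TNRC6AB-/- library as a triangle. P4HB stands near 300 TPM in both, while COL12A1, COL9A3 and COL13A1 sit higher in TNRC6AB-/- cells without overlap.

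Chains that assemble with each other were not equally abundant. COL1A1 RNA was 42.3 ± 6.74 times that of its partner COL1A2 in wild-type TPM. In CPM the 2 were closer, with wild-type means of 24.0 and 2.12. TPM here sums all annotated transcripts of a gene, whatever their length. COL6A3, which joins COL6A1 and COL6A2 in type VI collagen, stood at 0.02 ± 0.02 of COL6A1 in TPM. COL6A1 and COL6A2 were near parity, at a ratio of 0.89 ± 0.06. COL4A5 was 16.9 ± 6.16 times COL4A6, its head-to-head neighbour on the X chromosome. The main basement membrane chains COL4A1 and COL4A2 were almost silent, at 0.0321 to 0.251 and 0.0604 to 0.157 CPM in the wild-type libraries.

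Loss of both TNRC6A and TNRC6B shifted collagen RNA mostly upward. The question here is what changes when TNRC6A and TNRC6B are lost together. Calls required an adjusted p below 0.05 together with a log2 fold change above 0.6 or below -0.6. In TNRC6AB-/- against wild-type cells 21 of 52 tested members were called, 17 higher and 4 lower, where 18.7% of all tested genes were called (10.3% higher and 8.45% lower). The members' median log2 fold change was 0.31, beside 0.01 over all genes. With no filter, 22 of 60 members were called, 17 higher and 5 lower. Summed collagen TPM went from 132.4 ± 7.35 to 267.9 ± 69.6 (n = 3), and the sum of maturation genes from 551.7 ± 53.7 to 547.9 ± 45.8, which overlap.

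Among fibrillar chains, COL3A1, which forms type III collagen of vessel and gut walls (chr2:188974320-189012746, plus strand, GRCh38), rose the most. Its CPM was 0.0942, 0.0321 and 0.0302 in wild type and 14.5, 49.2 and 60.4 in TNRC6AB-/- cells. The groups are far apart, and TNRC6AB-/- replicate 1 is the lowest of its group. The wild-type value rests on 5 reads over 3 libraries against 4300 reads, a ratio of 808.5 with an exact 95% interval of 346 to 2491 that covers counting error only (log2 fold change 9.54, SE 0.52, adjusted p = 7.11e-12). TNRC6A-/- libraries at 0.0678, 0.0322 and 0.0939 CPM and TNRC6B-/- libraries at 0.109, 0.0690 and 0.0339 CPM overlapped wild type. COL3A1 had at most 5 reads in any library with 1 of the 2 paralogs present. The 7 fibroblast markers summed to 1.64 to 1.93 CPM in wild type and 1.06 to 1.45 CPM in TNRC6AB-/- libraries, lower and without overlap, with 0 of the 3 tested called. They summed to 1.09 to 1.85 CPM in TNRC6AB-/- siTNRC6C and 1.05 to 1.11 CPM in wild-type siGL2 libraries. Between these groups 1 of the 3, ASPN, was called higher in TNRC6AB-/- siTNRC6C cells (1.33, adjusted p = 0.0348). Their part in the collagen values was not tested. COL5A2, which lies 19149 bases from COL3A1 in the opposite orientation, measured 3.23, 2.96 and 3.26 CPM in wild type and 3.78, 3.51 and 4.22 CPM in TNRC6AB-/- libraries (log2 fold change 0.28, adjusted p = 0.204). COL1A1, the main chain of type I collagen, passed on p but not on fold (0.49, SE 0.16, adjusted p = 0.0251). Of 9 fibrillar chains tested 2 rose and 1 fell, the latter being COL27A1 (-0.65, SE 0.10, adjusted p = 3.21e-05), from 24.3, 26.5 and 28.9 to 16.5, 16.6 and 17.8 CPM. COL5A1, named after its values were seen, was the other to rise, at 0.220, 0.129 and 0.121 CPM in wild type and 0.662, 0.375 and 0.663 CPM in TNRC6AB-/- libraries (1.83, SE 0.46, adjusted p = 0.00388), and was not called with limma voom (adjusted p = 0.124).

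FACIT collagens included the member with the largest rise in CPM. COL12A1 (chr6:75084326-75206051), a stress-bearing fibril-associated chain, was at 135.9, 90.9 and 128.4 CPM in wild type and 464.6, 521.3 and 358.3 CPM in TNRC6AB-/- cells. Every TNRC6AB-/- library lay above every wild-type library (log2 fold change 1.92, SE 0.16, adjusted p = 3.50e-09). COL9A3, a chain of the cartilage FACIT type IX, went from 15.96, 11.5 and 19.0 to 64.2, 81.0 and 70.4 CPM (2.21, SE 0.15, adjusted p = 3.24e-10). Its partner COL9A2 rose from 2.76, 1.93 and 2.93 to 5.83, 5.63 and 8.69 CPM (1.40, SE 0.18, adjusted p = 3.06e-06). COL9A1, the chain that completes the type IX heterotrimer, stayed between 0.181 and 0.504 CPM in both groups. Of 9 FACIT chains 4 rose and 1 fell. The others were COL14A1, higher but with overlapping groups (0.440, 0.514 and 0.574 against 0.410, 1.55 and 1.99 CPM), and COL21A1, with 22 wild-type reads and 1 in TNRC6AB-/- libraries, both named after their values were seen.

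In the network-forming class, COL4A5 and COL4A6 rose together, by 1.05 (SE 0.09, adjusted p = 5.22e-09) and 1.15 (SE 0.17, adjusted p = 1.39e-05). These chains of epithelial basement membranes start 346 bases apart on opposite strands of the X chromosome (COL4A6 at chrX:108155607-108439497, COL4A5 at chrX:108439844-108697545). COL4A5 measured 33.0, 38.6 and 32.1 CPM in wild type and 73.6, 72.6 and 68.7 CPM in TNRC6AB-/- cells, without overlap. With counts scaled from TPM and transcript length, COL4A6 was no longer called (0.65, adjusted p = 0.0685). The other head-to-head pair, COL4A4 and COL4A3, 111 bases apart on chromosome 2, did not pass (0.23, adjusted p = 0.119, and -0.23, adjusted p = 0.278).

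COL6A1 and COL6A2, which form type VI microfibrils and led the wild-type chains in TPM, both rose. COL6A1 went from 65.1, 89.1 and 82.2 to 165.1, 192.5 and 200.5 CPM (1.24, SE 0.16, adjusted p = 2.39e-06) and COL6A2 from 60.2, 76.0 and 70.2 to 101.0, 146.0 and 133.9 CPM (0.88, SE 0.15, adjusted p = 9.85e-05). COL6A3 was called lower (-1.90, SE 0.42, adjusted p = 0.00136), with wild type at 1.41, 5.50 and 1.27 CPM and TNRC6AB-/- at 0.883, 0.804 and 0.483 CPM, so that wild-type replicate 2 carries much of the difference. Of 3 tested transmembrane chains 2 rose. COL13A1 (chr10:69801867-69964275), found at cell adhesions, was at 8.51, 9.51 and 17.9 CPM in wild type and 83.5, 71.7 and 38.8 CPM in TNRC6AB-/- libraries (2.43, SE 0.24, adjusted p = 5.25e-08). COL17A1, the hemidesmosome collagen, rose from 1.98, 2.60 and 2.14 to 4.95, 3.22 and 5.76 CPM (1.05, SE 0.19, adjusted p = 0.000154). Of the multiplexins, whose C-terminal fragments are antiangiogenic, COL15A1 rose from 0.974, 0.964 and 0.725 to 4.54, 4.05 and 4.37 CPM (2.28, SE 0.18, adjusted p = 3.01e-09) while COL18A1 was lower without passing (-0.22, adjusted p = 0.41). In TPM, COL15A1 was 1.16 ± 0.28 and 1.82 ± 0.76, overlapping.

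Of 15 tested maturation genes 4 rose and 1 fell. LOXL4, a lysyl oxidase (chr10:98247690-98268250), rose from 2.20, 3.60 and 2.84 to 8.10, 13.4 and 14.4 CPM (2.06, SE 0.21, adjusted p = 1.39e-07). LOXL2, which cross-links type IV collagen, rose by 1.09 (SE 0.21, adjusted p = 0.000314), from 19.1, 21.1 and 44.5 to 52.1, 57.3 and 70.9 CPM. The prolyl 3-hydroxylase P3H1 rose from 17.9, 20.3 and 21.4 to 37.4, 39.4 and 40.6 CPM (0.98, SE 0.10, adjusted p = 5.16e-08). TRAM2, a translocon protein tied to collagen synthesis, rose by 1.11 (SE 0.10, adjusted p = 1.03e-08). FKBP14, a prolyl isomerase of the endoplasmic reticulum, fell from 19.9, 30.2 and 21.0 to 13.7, 14.5 and 14.9 CPM (-0.72, SE 0.15, adjusted p = 0.000565). P4HB, the member of highest level, gave values near those of wild type (0.03, adjusted p = 0.89), and SERPINH1 did not pass (0.30, adjusted p = 0.0906). CRTAP, among the next highest, was not called. It lay higher without overlap, at 78.6, 56.8 and 90.6 CPM in wild type and 93.35, 101.6 and 103.6 CPM in TNRC6AB-/- libraries. PLOD1 overlapped, at 104.6, 126.5 and 227.5 CPM in wild type and 160.5, 183.2 and 252.6 CPM in TNRC6AB-/- libraries. Of the 21 calls of this comparison, 18 stayed whichever 1 library was left out. The other 3 were COL14A1 (0.97, adjusted p = 0.0683, without TNRC6AB-/- replicate 3), COL27A1 (-0.58 without wild-type replicate 3) and FKBP14 (-0.50 without wild-type replicate 2).

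**Figure D2:**
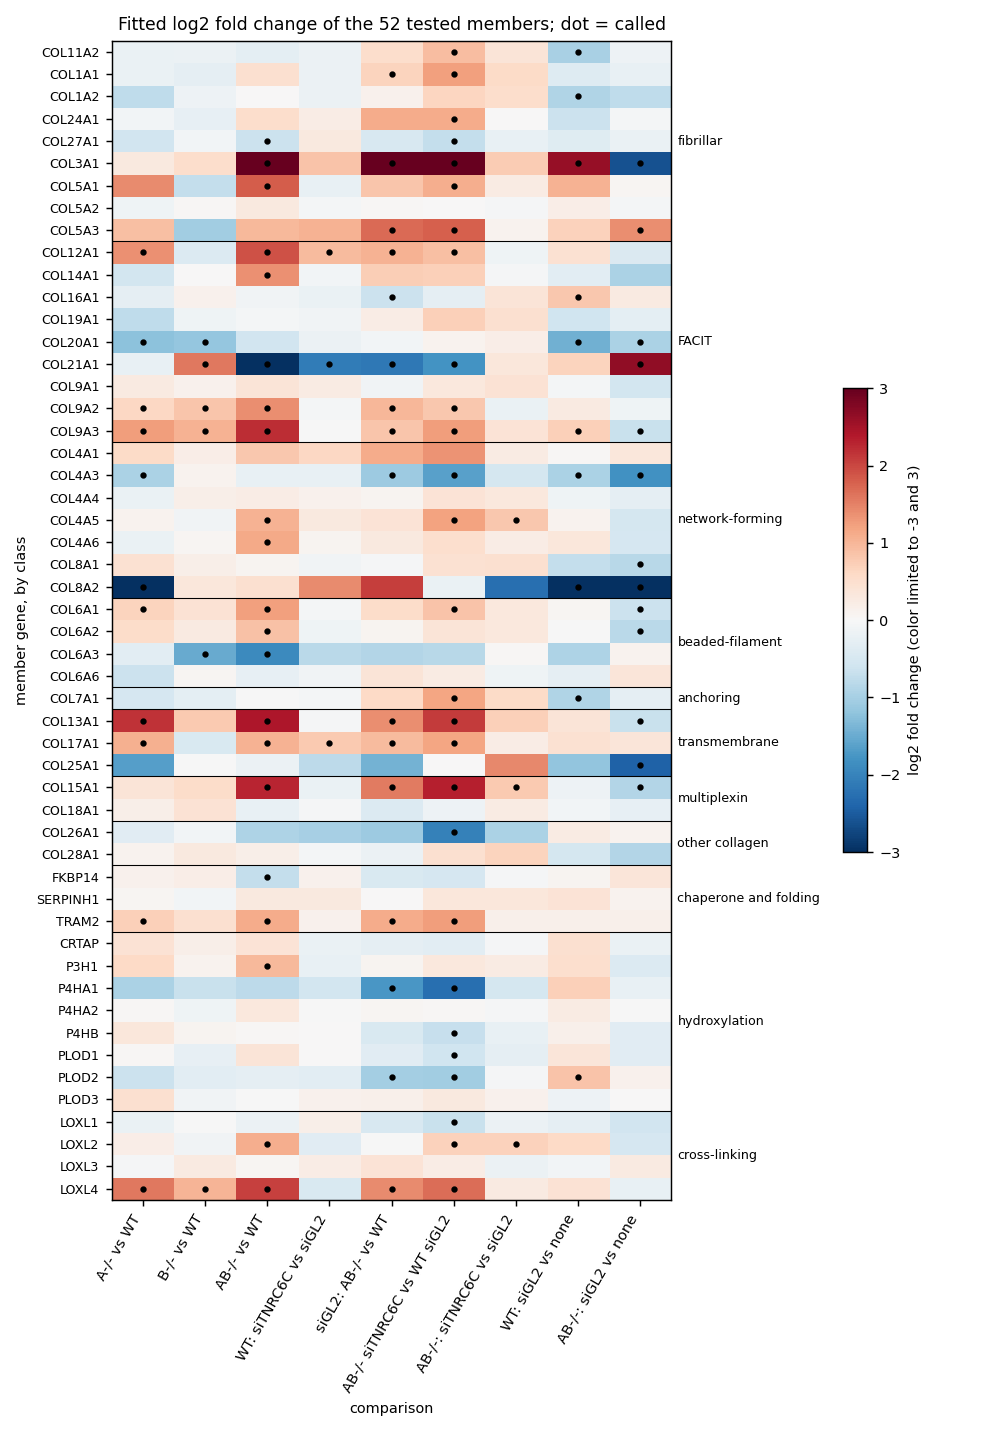
Fitted log2 fold changes of the 52 tested members (rows, grouped by class) in 9 comparisons (columns), with A-/-, B-/- and AB-/- short for the TNRC6 knockouts and none for untransfected cells. A dot marks a called change, color is limited to -3 and 3, and COL3A1 at 9.54, COL8A2 and COL21A1 lie beyond that range in some columns.

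The knockouts of a single paralog ask what TNRC6A and TNRC6B each contribute. The TNRC6A-/- line and fragment length cannot be told apart, since its libraries had the shortest fragments of all. In TNRC6A-/- against wild-type cells 11 of 52 members were called, 8 higher and 3 lower, beside 8.64% of all tested genes (4.62% higher and 4.01% lower). In TNRC6B-/- cells 6 were called, 4 higher and 2 lower, beside 1.98% of all genes (1.18% and 0.803%). These and the TNRC6AB-/- comparison share the wild-type libraries, so their values are given side by side only. COL12A1 was at 304.5, 329.2 and 281.3 CPM in TNRC6A-/- cells, all above wild type (1.36, SE 0.15, adjusted p = 2.05e-06), and at 115.0, 81.9 and 71.2 CPM in TNRC6B-/- cells, where it did not pass (-0.41, adjusted p = 0.175). COL13A1 likewise rose without TNRC6A, to 42.6, 60.7 and 59.4 CPM (2.18, SE 0.24, adjusted p = 1.13e-06), and without TNRC6B stood at 19.3, 18.6 and 23.7 CPM (0.78, SE 0.23, adjusted p = 0.0714). Whether either gene's response differs between TNRC6A-/- and TNRC6B-/- cells was not tested.

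COL9A3 and LOXL4 were called higher in all 3 knockout lines. COL9A3 reached 40.3, 34.6 and 35.2 CPM in TNRC6A-/- (1.25, SE 0.15, adjusted p = 5.50e-06) and 26.1, 29.4 and 39.9 CPM in TNRC6B-/- cells (1.04, SE 0.15, adjusted p = 0.000200), each group above the wild-type libraries. LOXL4 reached 8.89, 7.64 and 9.23 CPM in TNRC6A-/- (1.58, SE 0.21, adjusted p = 2.18e-05) and 3.95, 6.01 and 7.63 CPM in TNRC6B-/- cells (1.01, SE 0.22, adjusted p = 0.00803). In TNRC6A-/- cells TRAM2 (0.72, SE 0.10, adjusted p = 1.72e-05) and COL17A1 (1.06, SE 0.19, adjusted p = 0.000478) also rose, the latter no longer called with counts scaled from TPM and length (adjusted p = 0.109). COL6A1 rose there by 0.66 (adjusted p = 0.00609), under the fold threshold without wild-type replicate 1 (0.54) or TNRC6A-/- replicate 3 (0.59). In TNRC6B-/- cells the fit of the 6 compared libraries alone called 0 members, with COL9A3 at adjusted p = 0.178. LOXL4 there lost its call without wild-type replicate 1 (0.85, adjusted p = 0.0595) or TNRC6B-/- replicate 3 (0.78, adjusted p = 0.0812). COL9A2 was called in both lines (0.62 and 0.83), and without wild-type replicate 2 the values were 0.46 (adjusted p = 0.133) and 0.67 (adjusted p = 0.0618). It also lost its TNRC6A-/- call without replicate 1 (0.58) or 3 (0.61) of that line, and its TNRC6B-/- call without replicate 3 of that line (0.73). COL6A3 and COL20A1 were lower in TNRC6B-/- cells (-1.50 and -1.15), and without wild-type replicate 2 they stood at -0.49 (adjusted p = 0.485) and -0.81 (adjusted p = 0.124). COL6A3 also lost its call without any of the 3 TNRC6B-/- libraries (adjusted p 0.0527 to 0.199), and COL20A1 without replicate 2 (0.0801) or 3 (0.102) of that line.

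In TNRC6A-/- cells 3 members fell. COL4A3, a chain of the kidney and lung basement membrane, was at 12.7, 12.5 and 11.4 CPM in wild type and 5.90, 6.64 and 6.54 CPM in TNRC6A-/- cells (-0.94, SE 0.15, adjusted p = 0.000199), without overlap, and at 14.98, 13.3 and 11.3 CPM in TNRC6B-/- cells. COL8A2, a short-chain network collagen (chr1:36095236-36125220), had 20, 34 and 18 reads in wild type and 0 in each TNRC6A-/- library, which is at least 23.3-fold lower at a floor of 3 reads over the group. TNRC6B-/- libraries held 60, 19 and 25 reads and TNRC6AB-/- libraries 41, 44 and 22. All TNRC6AB-/- libraries thus held more COL8A2 reads than all TNRC6A-/- libraries. The third called lower was COL20A1 (-1.23, SE 0.28, adjusted p = 0.00458), at -0.53 (adjusted p = 0.455) with counts scaled from TPM and length and at adjusted p = 0.0544 with the compared libraries alone. In all 4 transfected groups COL8A2 was again scarce, with 0 to 4 reads per library.

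**Figure D3:**
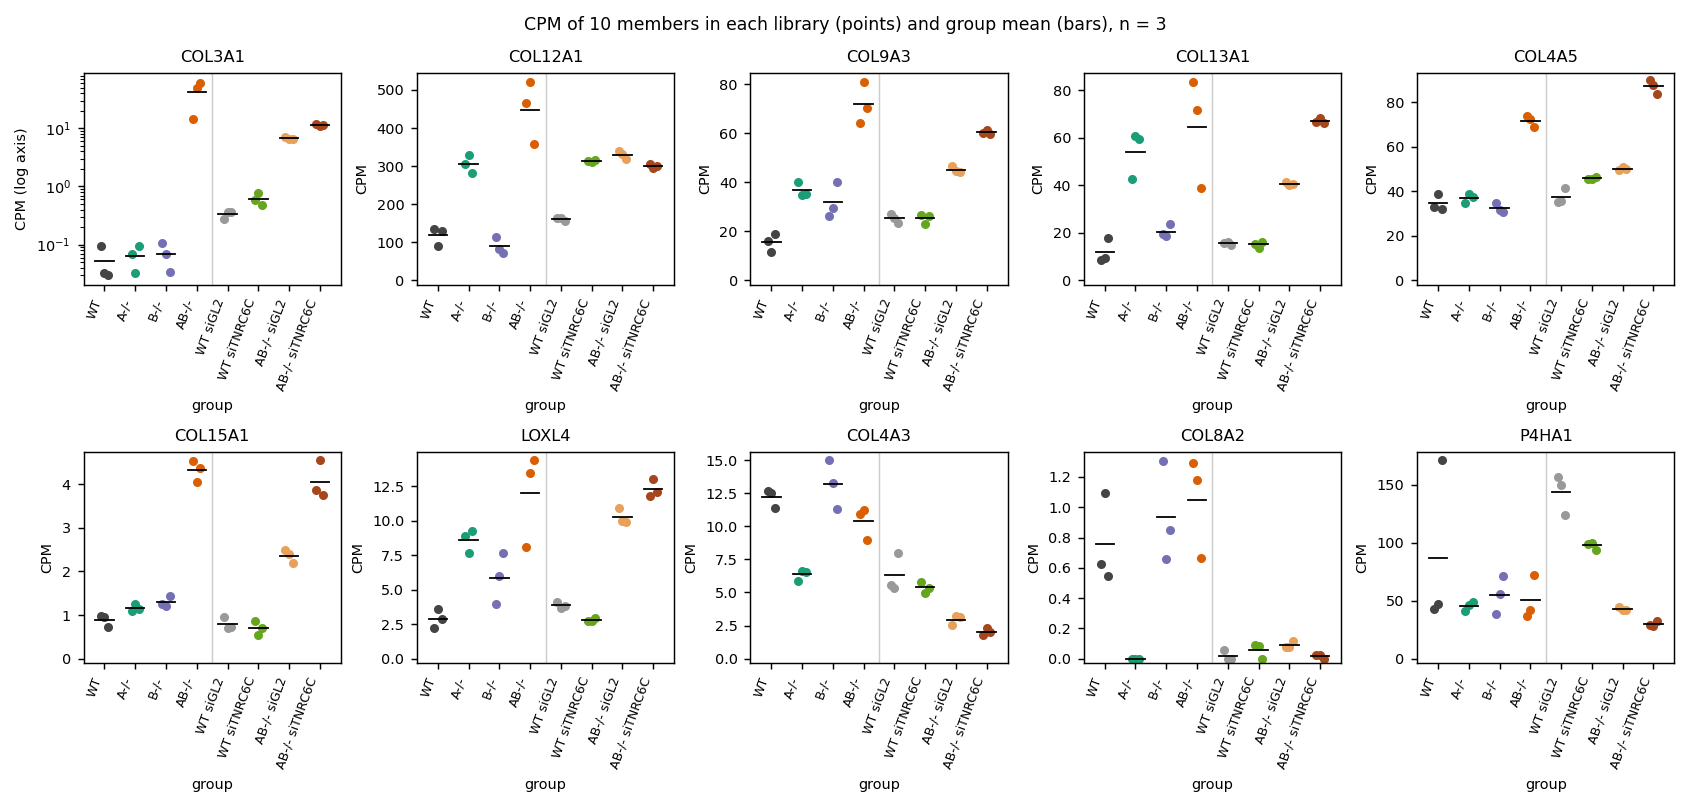
CPM of 10 members in each library (points) with the group mean (bar, n = 3), untransfected groups left of the grey line and transfected groups right of it; the COL3A1 axis is logarithmic. COL3A1 is above 5 CPM in the 3 TNRC6AB-/- groups and below 1 CPM elsewhere, COL12A1 is near 300 CPM with siTNRC6C in either background, and COL8A2 is at 0 in TNRC6A-/- cells.

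Whether the TNRC6AB-/- values equal the sum of the 2 losses was tested as an interaction on the log2 scale. It was called for 13 of 52 members, 10 above 0 and 3 below, beside 6.91% of all genes (3.13% above and 3.78% below). It was called for 6 or 7 members under 3 of the alternatives. For COL4A5 the excess over the sum was 1.05 (SE 0.12, adjusted p = 6.86e-06), and its TNRC6A-/- (34.5, 38.8 and 37.5 CPM) and TNRC6B-/- libraries (34.7, 31.8 and 30.5 CPM) overlapped wild type. COL4A6 gave 1.30 (SE 0.24, adjusted p = 0.00109) and COL15A1 1.35 (SE 0.26, adjusted p = 0.00177). With counts scaled from TPM and length neither was called (1.21, adjusted p = 0.0513, and 0.44, adjusted p = 0.547), nor was COL15A1 with protein-coding transcripts (0.91, adjusted p = 0.479). COL12A1 gave 0.96 (SE 0.22, adjusted p = 0.00584) and COL1A1 0.95 (SE 0.23, adjusted p = 0.0109), and with the compared libraries alone their adjusted p was 0.108 and 0.113. COL3A1 gave 8.72 (SE 1.95, adjusted p = 0.00568), and 8.04 (adjusted p = 0.111) without wild-type replicate 1, the library that holds 3 of its 5 wild-type reads. It was 6.48 (adjusted p = 0.0623) with counts scaled from TPM and length. FKBP14 went the other way, at -1.04 (SE 0.20, adjusted p = 0.00184), and at adjusted p = 0.0686 with the compared libraries alone. LOXL2 and COL18A1 were also called (0.99 and -0.81). LOXL2 lost the call on leaving out any of 8 of the 12 libraries, with 0.50 (adjusted p = 0.133) without wild-type replicate 3. COL18A1 lost it for 10 of the 12, at -0.54 (adjusted p = 0.168) without TNRC6B-/- replicate 3.

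Knockdown of TNRC6C alone touched few members. In wild-type cells given siTNRC6C rather than siGL2, 3 of 52 members were called, 2 higher and 1 lower, beside 0.629% of all tested genes (0.211% higher and 0.418% lower). COL12A1 rose from 164.8, 163.5 and 156.0 to 314.4, 311.2 and 315.6 CPM (0.96, SE 0.15, adjusted p = 0.00218), the only call of the 3 to remain whichever library was left out. COL17A1 rose from 3.24, 3.20 and 2.78 to 5.44, 5.14 and 5.21 CPM (0.77, SE 0.18, adjusted p = 0.0368), with adjusted p between 0.0985 and 0.165 on leaving out any 1 of the 6 libraries, and at 0.14 (adjusted p = 0.933) with counts scaled from TPM and length. COL21A1, named after its values were seen, had 13 reads in each siGL2 and 2, 4 and 3 in each siTNRC6C library. COL3A1 was at 0.275, 0.365 and 0.369 CPM with siGL2 and 0.588, 0.765 and 0.474 CPM with siTNRC6C, which did not pass (0.85, SE 0.51, adjusted p = 0.534).

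With all 3 paralogs lowered, 15 of 37 tested collagen chains rose and 4 of 8 hydroxylation genes fell in CPM. TNRC6AB-/- siTNRC6C against wild-type siGL2 cells had 27 of 52 members called, 18 higher and 9 lower, beside 29.2% of all genes (12.2% higher and 17% lower). Collagen chains, of which 4 fell, had a median of 0.66, and the hydroxylation genes, of which 0 rose, a median of -0.46. Over all genes the median was 0.01. In TPM the all-gene median of this comparison stood at 0.62, and TPM values of the 2 groups are to be read against that shift. Summed collagen TPM went from 103.0 ± 18.5 in wild-type siGL2 to 286.3 ± 9.93 in TNRC6AB-/- siTNRC6C cells (n = 3). The sum of maturation genes was 482.8 ± 24.7 and 551.3 ± 19.4 TPM.

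Fibrillar chains were 6 higher and 1 lower of 9. COL3A1 went from 0.275, 0.365 and 0.369 to 11.8, 10.8 and 11.5 CPM (5.07, SE 0.40, adjusted p = 1.62e-09). COL1A1 rose from 16.7, 17.0 and 21.0 to 43.4, 45.1 and 40.5 CPM, without overlap (1.24, SE 0.16, adjusted p = 2.55e-06). COL11A2 rose by 0.93 (SE 0.20, adjusted p = 0.000902). COL5A3, named after its values were seen, went from 0.495, 0.281 and 0.283 to 1.01, 1.22 and 1.46 CPM (1.79, SE 0.38, adjusted p = 0.000619). COL7A1, the anchoring fibril collagen beneath epithelia, rose from 8.08, 8.42 and 10.9 to 19.5, 22.1 and 19.9 CPM (1.17, SE 0.22, adjusted p = 0.000220). COL27A1 was lower (-0.71, SE 0.10, adjusted p = 6.88e-06) in CPM, and in log2 TPM its difference was 0.04.

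Of 7 network-forming chains 1 rose and 1 fell. COL4A5 rose from 35.4, 35.4 and 41.6 to 89.99, 87.6 and 83.6 CPM (1.22, SE 0.09, adjusted p = 4.17e-10). COL4A3 fell from 5.58, 5.36 and 7.97 to 1.77, 2.34 and 1.98 CPM (-1.63, SE 0.16, adjusted p = 6.00e-08), while its neighbour COL4A4 passed on p with a rise under the fold threshold (0.40, SE 0.11, adjusted p = 0.00451). The ratio of COL4A4 to COL4A3 TPM was 0.30 ± 0.03 in wild type, 0.64 ± 0.11 in wild-type siGL2 and 3.60 ± 0.47 in TNRC6AB-/- siTNRC6C cells. In CPM, COL4A4 was already the higher in wild type, with means of 16.5 and 12.2. COL13A1 rose by 2.10 (SE 0.23, adjusted p = 2.22e-07) and COL15A1 by 2.34 (SE 0.18, adjusted p = 1.33e-09). Type IX, LOXL4 and TRAM2 rose again, with COL9A3 at 1.25 (SE 0.15), COL9A2 at 0.81 (SE 0.18), LOXL4 at 1.67 (SE 0.21) and TRAM2 at 1.26 (SE 0.10), at adjusted p from 0.000886 down to 1.00e-09.

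Among the hydroxylases, P4HA1 (chr10:73007217-73096974), a catalytic subunit that sets the thermal stability of the helix, fell from 156.7, 149.4 and 123.9 to 28.7, 28.3 and 32.3 CPM (-2.27, SE 0.36, adjusted p = 2.24e-05). PLOD2, which hydroxylates telopeptide lysines, fell from 115.1, 111.2 and 94.3 to 51.3, 51.5 and 52.3 CPM (-1.05, SE 0.28, adjusted p = 0.00395). In CPM, P4HB fell by 0.69 (SE 0.14, adjusted p = 0.000281) and PLOD1 by 0.60 (SE 0.21, adjusted p = 0.0229). PLOD1 lost its call for 5 of the 6 libraries left out (adjusted p 0.0503 to 0.0779). In TPM, P4HB was at 238.3 ± 11.3 and 230.7 ± 10.3, overlapping, and PLOD1 at 52.1 ± 2.08 and 55.2 ± 1.58. P4HA1 (35.5 ± 1.75 and 11.7 ± 1.18) and PLOD2 (21.4 ± 1.98 and 17.1 ± 0.595) were lower in TNRC6AB-/- siTNRC6C than in wild-type siGL2 cells there too. TNRC6AB-/- cells given siGL2 were at 14.7 ± 0.84 TPM for P4HA1 and 14.8 ± 0.61 TPM for PLOD2. Untransfected wild-type libraries spread widely for P4HA1, at 42.4, 47.3 and 171.3 CPM, and for PLOD2, at 38.8, 31.1 and 106.7 CPM, with replicate 3 high for both. The TNRC6AB-/- libraries, at 36.9, 41.8 and 72.2 CPM of P4HA1, overlapped them (-0.79, adjusted p = 0.0888). P4HA2, the alternative catalytic subunit, did not pass (0.03, SE 0.18, adjusted p = 0.922), and SERPINH1 passed on p at 0.34 (adjusted p = 0.0422).

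Much of this was already present in TNRC6AB-/- cells given siGL2. Against wild-type siGL2, 16 of 52 members were called, 11 higher and 5 lower, beside 13.2% of all genes (5.39% higher and 7.77% lower). COL3A1 was at 7.05, 6.49 and 6.60 CPM (4.31, SE 0.41, adjusted p = 5.00e-08), COL12A1 at 340.5, 332.0 and 317.9 CPM (1.03, SE 0.15, adjusted p = 2.83e-05) and P4HA1 at 44.4, 42.3 and 41.9 CPM (-1.74, SE 0.35, adjusted p = 0.000796). Each of these groups lay apart from the wild-type siGL2 libraries. PLOD2 fell by 1.01 (SE 0.28, adjusted p = 0.0100). COL16A1 was called lower (-0.65, adjusted p = 0.00378), and at -0.57 it was under the threshold without TNRC6AB-/- siGL2 replicate 2. With protein-coding transcripts only it stood at -0.22 (adjusted p = 0.516).

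Within TNRC6AB-/- cells, siTNRC6C against siGL2 called 3 of 52 members, all higher, beside 3.32% of all genes (1.29% higher and 2.03% lower). COL4A5 rose from 49.4, 50.8 and 49.8 to 89.99, 87.6 and 83.6 CPM (0.80, SE 0.09, adjusted p = 6.06e-06). COL15A1 rose from 2.49, 2.39 and 2.18 to 3.87, 4.55 and 3.76 CPM (0.79, SE 0.17, adjusted p = 0.00640), with 0.69 (adjusted p = 0.0536) without siTNRC6C replicate 2 and adjusted p = 0.315 with counts scaled from TPM. LOXL2 rose by 0.70 (SE 0.21, adjusted p = 0.0424), and its adjusted p was between 0.1004 and 0.141 on leaving out any 1 of the 6 libraries. COL12A1, which rose with siTNRC6C in wild-type cells, was at 340.5, 332.0 and 317.9 CPM with siGL2 and 305.6, 294.3 and 301.6 CPM with siTNRC6C here (-0.14, adjusted p = 0.603). The effect of siTNRC6C differed between backgrounds for 2 members, 1 in each direction, beside 2.56% of all genes (0.807% and 1.75%). They were COL12A1 (-1.09, SE 0.21, adjusted p = 0.00826) and COL15A1 (0.98, SE 0.26, adjusted p = 0.0446). The latter lost its call on leaving out any 1 of the 12 libraries, with adjusted p between 0.0516 and 0.133, and was at 0.43 (adjusted p = 0.582) with counts scaled from TPM and length.

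Transfected and untransfected cells of 1 genotype also differed in collagen RNA. Wild-type siGL2 against untransfected wild-type cells called 10 of 52 members, 4 higher and 6 lower, beside 12.8% of all genes (6.34% and 6.47%). TNRC6AB-/- siGL2 against TNRC6AB-/- cells called 13, 2 higher and 11 lower, beside 10.9% (4% and 6.91%), all of them collagen chains. Transfection and fragment length cannot be told apart, since all transfected libraries had the longer fragments. COL3A1 fell in TNRC6AB-/- cells from 14.5, 49.2 and 60.4 to 7.05, 6.49 and 6.60 CPM (-2.62, SE 0.30, adjusted p = 3.20e-06), and rose in wild-type cells from 0.0942, 0.0321 and 0.0302 to 0.275, 0.365 and 0.369 CPM (2.61, SE 0.86, adjusted p = 0.0301), a call lost for 5 of the 6 libraries left out. COL4A3 fell in both, to 5.58, 5.36 and 7.97 CPM in wild type (-0.95, SE 0.15, adjusted p = 0.000430) and from 10.9, 11.3 and 8.93 to 2.51, 3.21 and 3.14 CPM in TNRC6AB-/- libraries (-1.81, SE 0.16, adjusted p = 1.06e-07). COL6A2 fell in TNRC6AB-/- cells by 0.81 (SE 0.15, adjusted p = 0.000683). COL7A1 and COL11A2 fell in wild-type cells (-0.89 and -0.98), and without wild-type replicate 2, their highest library, they stood at -0.45 (adjusted p = 0.111) and -0.55 (adjusted p = 0.0262), both under the fold threshold. COL9A3 rose there by 0.71, and by 0.53 without that library.

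The difference of the transfection effect between backgrounds was called for 11 of 52 members, 0 above 0 and 11 below, beside 7.35% of all genes (1.91% above and 5.44% below). COL9A3 gave -1.38 (SE 0.21, adjusted p = 0.000295), going up from 15.5 ± 3.79 to 25.3 ± 1.81 CPM in wild-type and down from 71.9 ± 8.47 to 45.1 ± 1.32 CPM in TNRC6AB-/- libraries (n = 3). P3H1 gave -0.90 (SE 0.13, adjusted p = 0.000241). COL3A1 gave -5.23 (SE 0.86, adjusted p = 0.000543) and COL12A1 -0.89 (SE 0.21, adjusted p = 0.0118). Without TNRC6AB-/- replicate 2 the fall of COL9A3 in that line was -0.55, under the fold threshold. The count was 3 without TNRC6AB-/- replicate 2, 6 without TNRC6AB-/- siGL2 replicate 3 and 7 without wild-type siGL2 replicate 2. It was 17 without the 4 libraries that lay farthest from their groups.

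PLOD2 RNA also changed in make-up. Its exon of 63 bases (chr3:146077862-146077924, minus strand, GRCh38; coding, and a multiple of 3 in length) distinguishes the long enzyme form, known for lysyl hydroxylation of telopeptides, from the short form. FKBP14 has an annotated exon of 92 bases (chr7:30020213-30020304, minus strand) that occurs in a transcript marked for nonsense-mediated decay. The spliced PLOD2 sequence is shown because this exon carries the result, with the exon in capitals and 15 bases of each neighbouring exon in lower case (GENCODE 29).
PLOD2 exon: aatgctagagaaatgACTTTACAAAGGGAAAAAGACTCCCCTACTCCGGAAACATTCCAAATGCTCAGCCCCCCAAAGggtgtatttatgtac

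Inclusion was computed as the TPM of annotated transcripts holding the exon, in percent of the TPM of all transcripts that span it. The PLOD2 exon was included at 27.8, 25.5 and 32.1% in wild type and 70.8, 75.4 and 62.5% in TNRC6AB-/- cells. TNRC6A-/- libraries stood at 55.5, 54.6 and 46.6% and TNRC6B-/- libraries at 51.96, 52.9 and 44.1%. Thus all libraries of each single knockout lay above wild type and below TNRC6AB-/-. In transfected cells the same exon was at 35.4, 33.7 and 37.8% in wild-type siGL2, 35.0, 41.5 and 37.6% in wild-type siTNRC6C, 66.5, 71.3 and 72.7% in TNRC6AB-/- siGL2 and 78.7, 77.6 and 81.2% in TNRC6AB-/- siTNRC6C libraries. The transcripts that skip the exon went from 11.4 ± 0.06 TPM in wild-type siGL2 to 2.60 ± 0.19 TPM in TNRC6AB-/- siTNRC6C cells, while those that include it went from 6.33 ± 0.56 to 9.88 ± 0.44 TPM (n = 3). The skipping form was thus lower against a rise of the all-gene median in TPM, and the change of the including form is near the size of that rise. Of 31 exons in 15 members with at least 1 TPM of spanning transcripts in every library, this was the only exon more than 20 points from the control without overlap in both the TNRC6AB-/- and the TNRC6AB-/- siTNRC6C comparison. It was picked after the values were seen, and no test was made.

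The FKBP14 exon went the other way, from 48.7, 37.1 and 38.9% in wild type to 26.3, 6.92 and 3.05% in TNRC6AB-/- cells and from 34.8, 27.2 and 30.4% in wild-type siGL2 to 12.6, 10.9 and 15.8% in TNRC6AB-/- siTNRC6C cells. TNRC6A-/- libraries were at 31.6, 12.3 and 20.9% and TNRC6B-/- libraries at 37.8, 27.5 and 33.9%, the latter overlapping wild type. Transcripts with the exon were at 2.34 ± 0.50 TPM in wild type and 0.35 ± 0.42 TPM in TNRC6AB-/- cells, and those that skip it at 3.31 ± 0.84 and 2.12 ± 0.36 TPM (n = 3). In wild-type siGL2 and TNRC6AB-/- siTNRC6C cells they were at 1.22 ± 0.26 and 0.49 ± 0.12 TPM with the exon. Without it they were at 2.73 ± 0.47 and 3.23 ± 0.08 TPM. Inclusion here rests on how Salmon divided reads between annotated transcripts. The authors also report a changed skipped exon event of FKBP14, by RT-PCR and qPCR, in TNRC6AB-/- cells with and without TNRC6C knockdown.

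**Figure D4:**
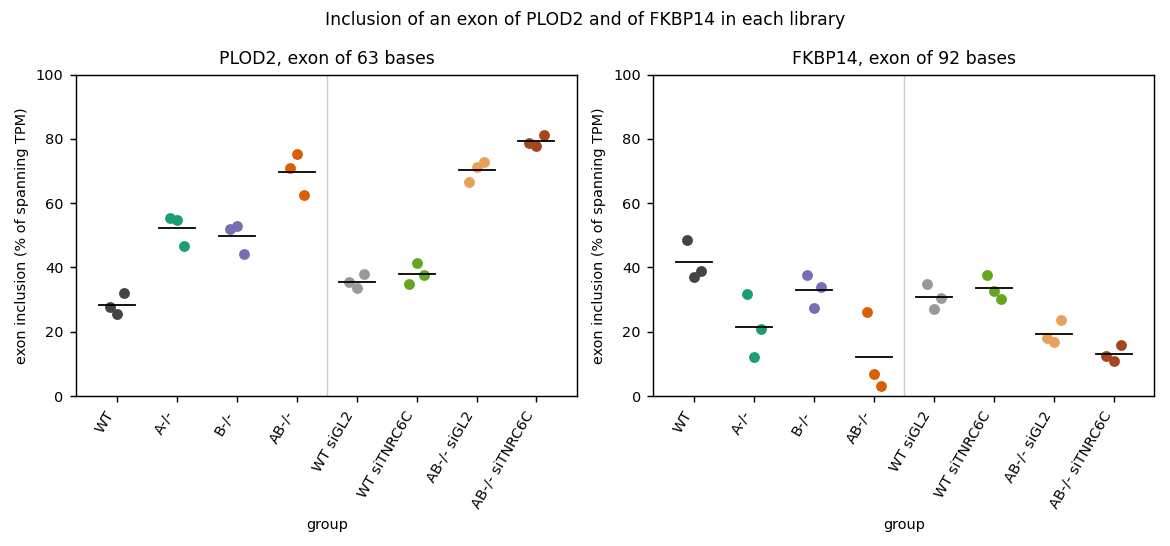
Inclusion (percent of spanning TPM) of the PLOD2 exon of 63 bases and the FKBP14 exon of 92 bases in each library (points) with the group mean (bar, n = 3). PLOD2 inclusion is 25.5 to 41.5% in the 3 wild-type groups and 62.5 to 81.2% in the 3 TNRC6AB-/- groups, and FKBP14 inclusion is lowest in the TNRC6AB-/- groups.

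Many collagen messages carry seed matches for miR-29, a microRNA family known as a repressor of matrix genes, and TNRC6 proteins act downstream of microRNAs. The mature sequences (RefSeq) are shown with their shared seed, bases 2 to 8, in capitals.
hsa-miR-29a-3p: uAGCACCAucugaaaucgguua
hsa-miR-29b-3p: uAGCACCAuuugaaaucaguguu
hsa-miR-29c-3p: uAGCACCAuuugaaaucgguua

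The match to that seed, TGGTGCT on the sense strand, was searched in the 3′ untranslated region of the leading protein-coding transcript of each gene. It occurred in 28 of 52 tested members (53.8%), beside 13.1% of 14949 tested genes with such a region, whose lengths differ (median 2562 bases in all genes with a match and 770 bases in those without). Matches of 5 members called in both the TNRC6AB-/- and TNRC6AB-/- siTNRC6C comparisons are shown in capitals in windows of 30 bases, 4 of genes that rose and COL27A1, which fell. These are examples, picked after the values were seen, and do not show how often a match goes with a rise. Other members called in both also carry a match, among them TRAM2, LOXL2 and COL5A1, which rose, and COL21A1, which fell.
COL3A1 (chr2:189012016-189012022): aaatgtctcaaTGGTGCTataataaataaa
COL3A1 (chr2:189012456-189012462): gacgcatgttaTGGTGCTaatgtactttca
COL15A1 (chr9:99070097-99070103): gatccatatatTGGTGCTagattctgcagg
COL4A5 (chrX:108696484-108696490): gctgccgtcaaTGGTGCTactatatatgat
LOXL4 (chr10:98248555-98248561): ccccatctaagTGGTGCTttgcaaatgtct
COL27A1 (chr9:114311300-114311306): tgtgaaatcgcTGGTGCTcacaattgtctc

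In TNRC6AB-/- against wild type 10 of the 28 members with a match rose and 4 fell (median log2 fold change 0.43), and of 24 without a match 7 rose and 0 fell (0.24). All tested genes with a match rose in 17.4% and fell in 7.21% of cases, and those without in 12.9% and 9.1%. In TNRC6AB-/- siTNRC6C against wild-type siGL2, 11 of 28 rose and 3 fell with a match, and 7 of 24 rose and 6 fell without. There 15.8% of all genes with a match rose and 13.3% fell, against 9.81% and 21.2% of genes without. COL12A1, COL9A3 and COL13A1, with some of the largest rises, have no match in this window. A match to the let-7 seed (CTACCTC) was less common, in 10 of 52 members (19.2%) and 8.84% of all genes, and of these 10 members 3 rose and 1 fell in each of the 2 comparisons. Of the 42 members without it, 14 rose and 3 fell in the first and 15 rose and 8 fell in the second. All genes with this match rose in 15.4% and 17.7% and fell in 8.78% and 12.1% of cases. Genes without it rose in 13.3% and 9.9% and fell in 8.86% and 20.95%. No test was made of these counts, and the microRNAs themselves were not measured.

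Genes around the members were taken from 6 lists and read in the same comparisons. Of all tested genes, 10.3% rose and 8.45% fell in TNRC6AB-/- against wild-type cells. In TNRC6AB-/- siTNRC6C against wild-type siGL2 cells 12.2% rose and 17% fell. The lists are short, and no test was made of their counts. Among 20 tested partners of fibrils and basement membranes, 7 rose and 2 fell in TNRC6AB-/- cells (median 0.21). SPARC, a collagen-binding glycoprotein, went from 1.70 to 26.7 CPM (3.97, SE 0.26, adjusted p = 1.12e-10), FN1, fibronectin, from 15.2 to 67.1 CPM (2.14, SE 0.15, adjusted p = 5.50e-10) and FBLN1, fibulin-1, to 42.9 CPM (1.42, SE 0.10, adjusted p = 5.76e-10). In TNRC6AB-/- siTNRC6C cells 9 of the 20 rose and 0 fell, with THBS1, thrombospondin-1, going from 14.1 to 129.4 CPM (3.20, SE 0.28, adjusted p = 5.64e-09).

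Of 7 tested genes for propeptide processing, 3 rose and 1 fell in TNRC6AB-/- cells, beside 10.3% and 8.45% of all genes. Those that rose included the procollagen N-proteinases ADAMTS2 (1.88, SE 0.17, adjusted p = 2.43e-08) and ADAMTS14 (1.54, SE 0.17, adjusted p = 3.78e-07). Of 10 tested receptors 2 rose, the endocytic collagen receptor MRC2 from 18.0 to 55.9 CPM (1.64, SE 0.22, adjusted p = 3.76e-06) and the integrin ITGA10 (0.78, SE 0.22, adjusted p = 0.00900). Of 10 tested genes for degradation 3 rose and 1 fell. TIMP2, a metalloproteinase inhibitor, rose by 1.19 (SE 0.14, adjusted p = 1.05e-06) and MMP14, a membrane collagenase, by 0.97 (SE 0.13, adjusted p = 5.68e-06), whereas TIMP3 fell from 3.01 to 0.615 CPM. From wild-type siGL2 to TNRC6AB-/- siTNRC6C cells TIMP3 went from 5.66 to 0.0854 CPM (-5.98, SE 0.37, adjusted p = 2.73e-11). In that comparison 2 of the 7 genes for propeptide processing rose and 3 fell. Of the 10 receptors 1 rose and 0 fell, and of the 10 genes for degradation 2 rose and 2 fell. Of all genes 12.2% rose and 17% fell there.

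In TNRC6AB-/- cells 3 of 12 tested folding genes rose and 0 fell, and 1 of 16 secretion genes rose and 1 fell, beside the 10.3% and 8.45% of all genes. CREB3L1, a transcription factor for collagen secretion, was the gene that rose in the secretion list (1.24, SE 0.22, adjusted p = 0.000166). Among folding genes FKBP7, P3H2 and P4HA3 rose by 0.83, 1.001 and 1.14. In TNRC6AB-/- siTNRC6C cells 4 of the 12 folding genes fell and 1 rose (median -0.41), and 3 of the 16 secretion genes fell and 1 rose. Of all genes 17% fell and 12.2% rose there. PPIB, cyclophilin B of the prolyl 3-hydroxylation complex, went from 232.9 to 98.3 CPM (-1.25, SE 0.16, adjusted p = 2.18e-06). The chaperones HSP90B1 (-0.78, SE 0.12, adjusted p = 1.46e-05) and PDIA3 (-0.81, SE 0.12, adjusted p = 1.87e-05) fell as well. Epithelial markers were read beside the members. Of 8 such markers 3 fell and 1 rose in TNRC6AB-/- cells, CDH1 (E-cadherin) from 98.2 to 24.6 CPM, CLDN7 from 110.2 to 26.3 CPM and EPCAM from 213.6 to 82.0 CPM, with KRT8 the one that rose. In TNRC6AB-/- siTNRC6C against wild-type siGL2 cells 4 of the 8 fell and 0 rose, beside the same 17% and 12.2% of all genes. In TNRC6AB-/- siGL2 against wild-type siGL2 cells 0 fell and 0 rose, beside 7.77% and 5.39% of all genes. In TNRC6A-/- against wild-type cells 4 of these markers fell and 1 rose, beside 4.01% and 4.62%. Their part in the collagen values was not tested.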

How the data were processed

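The authors deposited 1 Salmon table per library, with estimated counts, TPM and transcript lengths for each GENCODE 29 transcript on GRCh38. The submitters' processing notes name Salmon 0.11.0, STAR 2.5.3a and DESeq2. Estimated counts were summed to genes and rounded, and TPM was summed for comparing genes. The authors' TPM sums to the same total in each library. Of 199612 transcripts, 244 found no gene, with at most 0.0544% of a library's reads.

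Counts were TMM-scaled and fitted in edgeR 4.0.16 (R 4.3.3) with its quasi-likelihood test, with 8 group means over all 24 libraries and Benjamini-Hochberg adjustment over the 24153 genes that passed filterByExpr. CPM are TMM-scaled. The fit was tested on simulated data. Exon inclusion and seed matches came from annotated transcripts. Intervals and floors cover counting error only.

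Named members were up to 12 per comparison, by smallest adjusted p among those called with at least 1 CPM, with the 10 highest in wild-type TPM, FKBP14 and subunits of the same collagen type. From each pathway list up to 3 genes per comparison were named by adjusted p. The members and lists were chosen with earlier results of these data known. Alternatives were DESeq2 1.42.0, limma 3.58.1 voom, RLE scaling, no filter, counts scaled from TPM and length, protein-coding transcripts, a replicate block, the compared libraries alone, and leaving out libraries. Figures were drawn with matplotlib 3.10.9.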

Additional observations from a re-analysis of the deposited data

Results flagged for a closer look

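Effects that differed between genotypes by an interaction test (edgeR's quasi-likelihood test, Benjamini-Hochberg adjusted p below 0.05, log2 scale) are collected here, with values only. The excess of TNRC6AB-/- cells over the sum of both single losses was 8.72 for COL3A1, 1.35 for COL15A1, 1.30 for COL4A6, 1.05 for COL4A5, 0.99 for LOXL2, 0.96 for COL12A1 and 0.95 for COL1A1. It was below 0 for FKBP14 (-1.04) and COL18A1 (-0.81). Those listed had a mean of at least 1 CPM over the compared libraries. The 13 called, 10 above 0 and 3 below, include others under that level. With counts scaled from TPM and length COL15A1 (0.44, adjusted p = 0.547), COL3A1 (6.48, adjusted p = 0.0623), COL4A6 (1.21, adjusted p = 0.0513) and COL18A1 (-0.92, adjusted p = 0.0542) were not called, and COL18A1 and LOXL2 lost their calls for most single libraries left out.

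The effect of siTNRC6C in TNRC6AB-/- minus that in wild-type cells was -1.09 for COL12A1 and 0.98 for COL15A1, the latter lost for any 1 of the 12 libraries left out. The difference between siGL2-transfected and untransfected cells, TNRC6AB-/- minus wild type, was -5.23 for COL3A1, -1.38 for COL9A3, -1.09 for LOXL2, -1.05 for COL13A1, -0.90 for P3H1, -0.89 for COL12A1, -0.86 for COL4A3, -0.86 for COL4A6, -0.80 for COL6A2, -0.68 for CRTAP and -0.64 for COL4A5. Of these 11, the calls of COL3A1, COL9A3 and P3H1 stayed whichever 1 library was left out, and the other 8 were lost for at least 1 library, COL13A1 for 9, LOXL2 for 7 and COL4A6 and CRTAP for 5 each. With counts scaled from TPM and length COL4A6 was at -0.17 (adjusted p = 0.847), COL4A3 at -0.44 (adjusted p = 0.416), COL4A5 at -0.48 (adjusted p = 0.135) and CRTAP at adjusted p = 0.0843. COL13A1 also lost its call with the replicate block (-1.07, adjusted p = 0.0535), COL12A1 with protein-coding transcripts (adjusted p = 0.0527) and COL3A1 with limma voom (adjusted p = 0.123).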

How the results depend on the processing

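The count of changed members in TNRC6AB-/- against wild type was 21, and stayed within 1.5 times that under every alternative run. Counts moved further as follows, where "scaled counts" are counts scaled from TPM and length. For TNRC6B-/- (6) they were 3 with scaled counts, 0 with the compared libraries only and 1 with limma voom. For siTNRC6C in wild type (3) they were 1 with scaled counts and 5 with the compared libraries only. For siTNRC6C within TNRC6AB-/- cells (3) they were 5 with no filter, scaled counts, protein-coding transcripts or 4 outlying libraries left out (chosen after seeing the data), 8 with the compared libraries only and 7 with voom. For wild-type siGL2 against wild type (10) they were 6 without wild-type replicate 2 and TNRC6B-/- replicate 1, 1 with the compared libraries only and 16 on adjusted p alone. For the interaction of both losses (13) they were 6 with scaled counts or the compared libraries only and 7 with voom. For the siTNRC6C effect by genotype (2) they were 4 with no filter or DESeq2, 6 with protein-coding transcripts or either set of outlying libraries left out, and 9 with the compared libraries only or voom. For the siGL2 effect by genotype (11) they were 7 with scaled counts, 17 without the 4 libraries and 3 with the compared libraries only. The cause was not tested.

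Leaving out 1 library gave 9 to 15 members for TNRC6A-/-, 1 to 8 for TNRC6B-/- (1 without TNRC6B-/- replicate 3, 2 without wild-type replicate 2), 21 to 23 for TNRC6AB-/-, 1 to 1 for siTNRC6C in wild type, 24 to 31 for TNRC6AB-/- siTNRC6C and 15 to 18 for TNRC6AB-/- siGL2 against wild-type siGL2, and 1 to 3 for siTNRC6C within TNRC6AB-/- cells (1 without siTNRC6C replicate 2). It gave 4 to 15 for wild-type siGL2 against wild type (4 without wild-type replicate 2), 6 to 14 for TNRC6AB-/- siGL2 against TNRC6AB-/- (6 without TNRC6AB-/- replicate 2), 10 to 14 for the interaction of both losses, 1 to 1 for the siTNRC6C effect by genotype and 3 to 15 for the siGL2 effect by genotype.

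Every called member was taken through the alternatives. Directions reversed in TPM in TNRC6AB-/- siTNRC6C against wild-type siGL2 cells for COL27A1 (0.0448), LOXL1 (0.0396) and PLOD1 (0.0832), where the all-gene median of TPM was itself at 0.62, and for COL8A1 in TNRC6AB-/- siGL2 against TNRC6AB-/- with scaled counts (0.14, adjusted p = 0.80) and in TPM (0.13). The replicate numbers were not used to pair the samples. No comparison had all 3 correlations of deviations above 0.1, which with 3 libraries per group cannot decide whether samples were paired. They were 0.219, 0.00505 and 0.354 in TNRC6AB-/- siGL2 against wild-type siGL2. In TNRC6AB-/- siGL2 against TNRC6AB-/- they were -0.322, 0.0322 and -0.264. With the replicate block the siTNRC6C effect by genotype counted 1 member, TNRC6B-/- 5, TNRC6AB-/- 21 and TNRC6AB-/- siTNRC6C against wild-type siGL2 28. Depth limits the members under 1 CPM, where a few reads set the fold.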
